A study of Mus musculus with 100 samples.

Results

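Toll-like receptors are membrane proteins of innate immunity, and 8 of them (Tlr1, Tlr2, Tlr3, Tlr4, Tlr5, Tlr6, Tlr7 and Tlr9) were followed in mouse knee joints together with the adaptors Myd88 and Tirap. These 10 genes were taken by name from a table of 17310 genes, and all 10 had counts in every library. RNA-seq was performed on whole knee joints of 3 inbred strains, MRL/MpJ, C57BL/6 and STR/ort, all 10 weeks old, whose right knees were injured with a single compressive load of 10 to 12 N. Whole joints were taken before any injury (0-day), or both the injured and the uninjured contralateral joint were taken at 1-day, at 1-week or at 2-weeks after it. The 100 libraries formed 21 groups of strain, time and joint with 4 to 5 libraries each. The labels describe MRL/MpJ as not susceptible to post-traumatic osteoarthritis, and STR/ort is a strain known for developing osteoarthritis spontaneously. The labels name no transgene or deletion. Per the study's methods mice were injured at 10 weeks of age under isoflurane and then given the analgesic buprenorphine, which reached injured and contralateral joints alike. In comparisons with 0-day joints, and only there, the agents, the injury of the other knee and the later age of the mice cannot be told apart. Each joint held bone, marrow, cartilage, synovium and traces of the surrounding soft tissue.

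Toll-like receptors bind molecules that mark microbes or damaged tissue and pass the signal on through adaptors that share the TIR domain. Tlr1, Tlr2, Tlr4, Tlr5 and Tlr6 act mainly at the cell surface, where Tlr2 pairs with Tlr1 or Tlr6 to bind bacterial lipopeptides, Tlr4 responds to lipopolysaccharide and Tlr5 to flagellin. Tlr3, Tlr7 and Tlr9 act in endosomes and bind double-stranded RNA, single-stranded RNA and unmethylated DNA, respectively. Myd88 relays the signal of nearly all of these receptors, with Tlr3 as the exception, and Tirap (Mal) brings Myd88 to Tlr2 and Tlr4. In joints, fragments of matrix such as biglycan and versican, and the calgranulins S100a8 and S100a9, are known as tissue-derived ligands of Tlr2 and Tlr4.

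Promoters of 3 receptors whose levels differed between strains or with injury are shown here because each carries a letter match to a motif of factors that act in immune cells. The sequences are from RefSeq (GRCm38.p6) and run 5′ to 3′ on the strand of the gene from 250 bases before the transcription start to 50 bases after it. Capitals mark letter matches on either strand to the PU.1 motif GAGGAAGT, the AP-1 motif (TGACTCA or TGAGTCA) or the kappa B site of NF-kappa B. The first is Tlr1 at chr5:64933509-64933808 on the minus strand, the next is Tlr2 at chr3:83841559-83841858 on the minus strand, and the last is Tlr9 at chr9:106222348-106222647 on the plus strand.
Tlr1: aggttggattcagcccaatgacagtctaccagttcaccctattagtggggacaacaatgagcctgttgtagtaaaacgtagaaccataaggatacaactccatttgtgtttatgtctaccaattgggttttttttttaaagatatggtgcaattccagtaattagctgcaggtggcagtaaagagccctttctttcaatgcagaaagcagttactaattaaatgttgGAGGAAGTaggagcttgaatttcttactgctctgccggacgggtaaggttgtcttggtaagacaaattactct
Tlr2: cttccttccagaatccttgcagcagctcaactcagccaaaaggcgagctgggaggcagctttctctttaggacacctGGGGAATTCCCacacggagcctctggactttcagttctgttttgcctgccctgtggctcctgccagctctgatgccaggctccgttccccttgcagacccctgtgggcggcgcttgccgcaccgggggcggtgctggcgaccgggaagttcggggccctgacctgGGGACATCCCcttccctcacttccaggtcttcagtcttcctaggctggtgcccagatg
Tlr9: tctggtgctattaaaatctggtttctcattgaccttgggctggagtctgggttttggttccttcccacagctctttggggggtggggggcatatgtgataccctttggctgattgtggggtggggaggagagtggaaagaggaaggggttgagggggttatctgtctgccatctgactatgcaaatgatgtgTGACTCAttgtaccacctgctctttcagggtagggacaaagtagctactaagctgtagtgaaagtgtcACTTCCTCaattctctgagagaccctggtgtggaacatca
In Tlr1 a PU.1 match lay 23 bases before the start, and no AP-1 or kappa B match was found in this window. In Tlr2 there was a kappa B run of 11 bases beginning 173 bases before the start, and another of 10 bases began 8 bases before the start and ran across it. Tlr9 held an AP-1 match 58 bases before the start and a PU.1 match on the opposite strand just after it. Such letter matches are common, since 8.46% of 32851 mouse promoters of the same length held a kappa B site, 5.2% an AP-1 match and 3.2% a PU.1 match. RefSeq entries were found for 8 of the 10 genes (11 promoters). Of those not shown, Tlr3 held a kappa B match, whereas another Tlr1 entry and those of Tlr5, Tlr6, Myd88 and Tirap held no match to these motifs. The matches describe the letters only, and binding was not measured. The genes themselves lie at chr5:64924680-64933600 (Tlr1) and chr5:64953092-64970942 (Tlr6), both on the minus strand, and Tlr9 (chr9:106222598-106226876), Myd88 (chr9:119335934-119340018) and Tirap (chr9:35184391-35200291) share a chromosome without being neighbours.

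Libraries held 6182016 to 20986027 counts, with a median of 10582591.5. No 2 libraries of a group were identical, and the lowest correlation of a library with the mean of its group was 0.987, in MRL/MpJ 2-weeks injured replicate 4. The 0-day, 1-day and 1-week libraries were labelled batch 1 (70 libraries) and the 2-weeks libraries batch 2 (30 libraries), so that time and batch cannot be told apart for 2-weeks and all tests were made within a batch. The defining markers of muscle, neutrophils, macrophages, cartilage and fibroblasts were detected in every group, and none of the marker genes examined was at 0 throughout a group. Because the whole joint was sampled, a lower level cannot be told apart as fewer cells of a type or less RNA per cell. Reads of all strains were aligned to the same reference genome. Whether this lowered the counts of strains that differ from that genome was not tested.

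Levels were expressed as CPM, the counts of a gene in every 1000000 counts of a library after TMM scaling, and per kb of exon when genes were compared with each other. On the latter scale Myd88 was the most abundant of the 10 genes, with a median of 16.7 CPM per kb over the 100 libraries (10.1 to 26.4), followed by Tirap (8.75) and Tlr2 (7.33). Tlr7 (4.51) and Tlr4 (3.83) were intermediate. Tlr6, Tlr9, Tlr1, Tlr3 and Tlr5 lay close together with medians of 1.77, 1.71, 1.62, 1.30 and 1.08 CPM per kb, and the ranges of neighbouring genes in this order overlapped throughout. This order pools the strains and did not hold in each. In MRL/MpJ the median was 69.3 CPM for Tirap (4.93 kb of exon) and 34.3 CPM for Myd88 (2.58 kb), which puts Tirap slightly above Myd88 per kb. In STR/ort it was 1.24 CPM for Tlr1 (3.35 kb) and 4.165 CPM for Tlr5 (4.79 kb), which puts Tlr1 below Tlr5. The counts behind these levels differed accordingly, from 199 to 1083 per library for Myd88 down to 4 to 180 for Tlr1, so that values of Tlr1, Tlr3, Tlr5, Tlr6 and Tlr9 carried more counting error than those of the adaptors. Between groups, Tlr1 varied most, with a mean of 11.4 ± 2.57 CPM (SD, n = 5) in injured C57BL/6 joints 1-day post-injury and 0.778 ± 0.171 CPM (SD, n = 4) in uninjured STR/ort joints at 1-week. Tlr2 and Tlr4 varied least, with highest group means 1.98 and 1.92 times their lowest.

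Strain was compared first in joints of mice that had not been injured, to ask which genes differed before any injury. A gene was called when the adjusted p of edgeR's quasi-likelihood test was below 0.05 and the fold change exceeded 1.5. At 0-day, 4 of the 10 genes were called between STR/ort and MRL/MpJ, all lower in STR/ort (Tlr1, Tlr5, Tlr6 and Tirap), where 14.8% of all genes were called. Between STR/ort and C57BL/6, 5 were called, all lower in STR/ort (Tlr1, Tlr3, Tlr5, Tlr7 and Tlr9), against 13.8% of all genes. Between C57BL/6 and MRL/MpJ, 6 were called against 15.9% of all genes, with Tlr3, Tlr7, Tlr9 and Myd88 higher and Tlr6 and Tirap lower in C57BL/6. The share of called genes among the 10 was thus above the share among all genes in each of the 3 comparisons. The 10 genes had counts in every library and were chosen with earlier results of these data known, so this higher share is no test of the set. The median log2 fold change of the 10 genes lay between -0.46 and 0.39, beside -0.06 and 0.01 for all genes. The p-values measure the spread between these libraries, each made from 1 joint as far as the labels tell.

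The same comparisons were then made in other mice, in the uninjured contralateral joints. At 1-day, 4 genes were called between STR/ort and MRL/MpJ (22.6% of all genes), 4 between STR/ort and C57BL/6 (10.5%) and 4 between C57BL/6 and MRL/MpJ (14.8%). At 1-week the counts were 4 (24.4%), 2 (22.2%) and 3 (8.53%) in that order, and at 2-weeks they were 3 (13.8%), 2 (9.78%) and 3 (9.83%). The 2 genes of the STR/ort and C57BL/6 comparison at 1-week, Tlr1 and Tlr9, were a share close to that of all genes. In injured joints 5, 4 and 5 genes were called at 1-day (20.3%, 12.4% and 16.3% of all genes), 4, 2 and 3 at 1-week (29.5%, 25.1% and 9.47%) and 3, 2 and 3 at 2-weeks (18.9%, 10.4% and 11.5%). Tlr1, Tirap, Tlr6 and Tlr9 made up most of these calls, since Tlr1 and Tlr9 were called in 17 of all 39 comparisons each, Tirap in 14 and Tlr6 in 12, while Tlr2 and Tlr4 were called in 1 each. The comparisons of a pair of strains at different times used different mice. By design the injured and contralateral joints of a time came from the same mice, which the labels name at 2-weeks only. Their strain comparisons are therefore not independent repeats. Comparisons that share a strain, time and joint share its libraries.

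**Figure D1:**
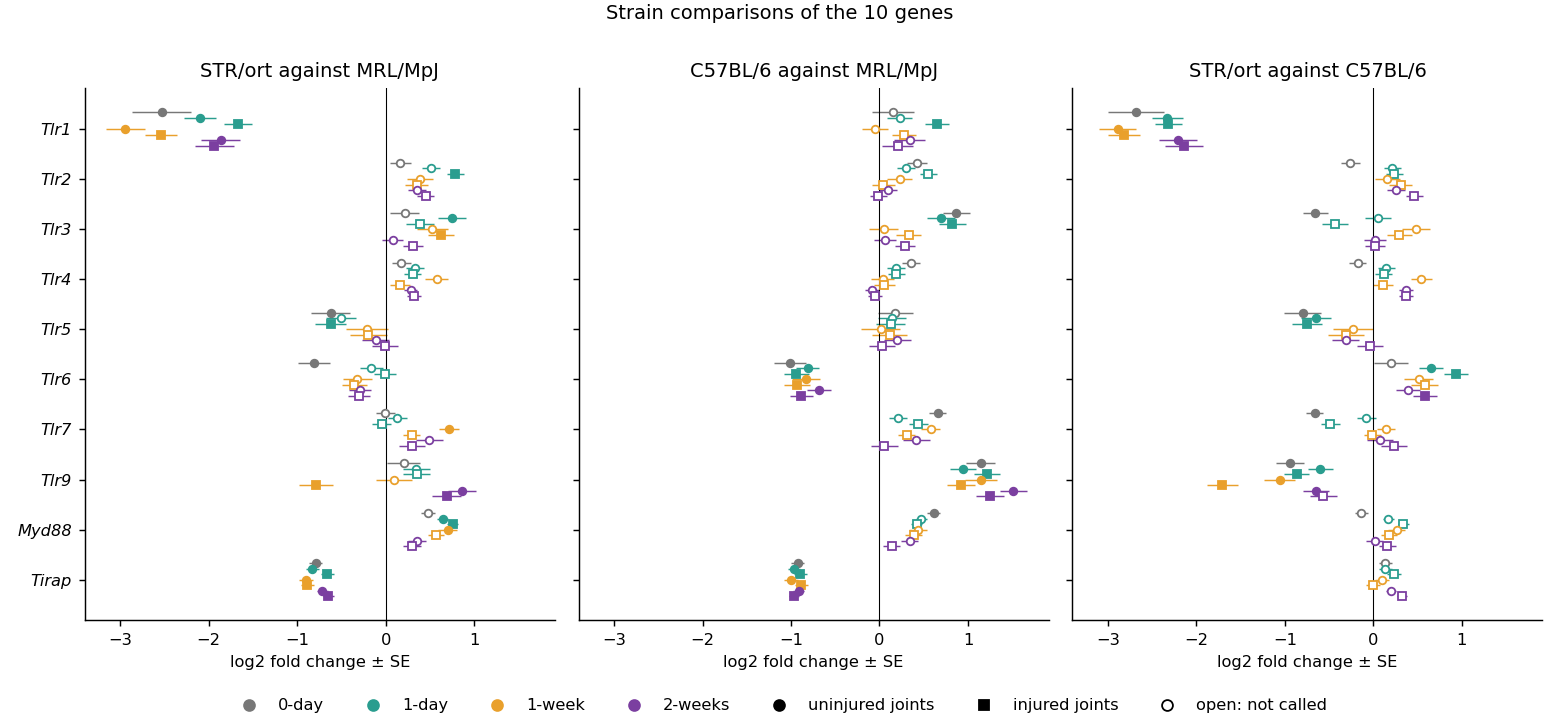
Log2 fold change ± SE (x axis) of each of the 10 genes (y axis) for each pair of strains, by time (colour) and joint (circles for uninjured, squares for injured), with filled symbols for called comparisons. In the STR/ort panels all Tlr1 symbols are filled and lie below -1.6, and Tirap and Tlr6 sit below 0 in every C57BL/6 against MRL/MpJ comparison.

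Tlr1, the partner of Tlr2 for triacylated lipopeptides, was the gene that differed most between strains. At 0-day its level was 1.84, 0.711, 0.418 and 0.614 CPM in the 4 STR/ort joints, compared with 5.89, 5.0, 7.23 and 3.62 CPM in MRL/MpJ and 5.25, 6.43, 4.84 and 6.97 CPM in C57BL/6. Every STR/ort joint was below every joint of the other strains, and MRL/MpJ and C57BL/6 overlapped. Over all times and joints, the 33 STR/ort libraries ranged from 0.418 to 2.65 CPM (median 1.24), the 33 MRL/MpJ libraries from 3.62 to 8.83 CPM (median 5.88) and the 34 C57BL/6 libraries from 4.72 to 14.3 CPM (median 6.6). Tlr1 was lower in STR/ort than in C57BL/6 in 7 of 7 comparisons, by 4.41- to 7.40-fold (log2 -2.89 to -2.14, adjusted p at most 3.62e-06, edgeR), and than in MRL/MpJ in 7 of 7, by 3.18- to 7.69-fold (log2 -2.94 to -1.67, adjusted p at most 9.41e-06, edgeR), with no overlap of libraries in any of them. Without STR/ort 0-day replicate 1, the highest of its group, the 0-day values were -3.36 in place of -2.68 against C57BL/6 and -3.21 in place of -2.53 against MRL/MpJ. STR/ort libraries held only 4 to 32 Tlr1 counts each, so that the size of the difference is less certain than its direction. C57BL/6 and MRL/MpJ differed in Tlr1 in 1 of 7 comparisons, in injured joints at 1-day (log2 0.65, SE 0.134, adjusted p = 0.000237, edgeR), where the libraries overlapped and the call was lost without C57BL/6 1-day injured replicate 3 (0.58) or replicate 4 (0.57) and under 1 RUVg factor (0.58). RUVg estimates 1 factor of unwanted variation from 25 housekeeping genes, and this factor was added to the fit beside TMM scaling. Per its methods the study also normalized its data with RUVseq and 25 housekeeping genes, without giving the number of factors. T cell markers (5 genes, summed) were also lower in STR/ort, with a median of 10.9 CPM (6.33 to 15.4) beside 16.5 CPM (10.4 to 26.6) in MRL/MpJ and 16.6 CPM (10.7 to 25.1) in C57BL/6. Their part in the Tlr1 difference was not tested, and neither was that of aligning all strains to the C57BL/6 genome.

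Tlr6, which lies next to Tlr1 on chromosome 5 and pairs with Tlr2 for diacylated lipopeptides, had another order of strains, with C57BL/6 lowest. At 0-day it stood at 4.80, 3.22, 3.29 and 3.44 CPM in C57BL/6, at 4.85, 3.79, 4.49 and 4.17 CPM in STR/ort and at 6.69, 7.44, 6.55 and 10.4 CPM in MRL/MpJ. All MRL/MpJ joints were above all joints of the other strains, which overlapped with each other. C57BL/6 was lower than MRL/MpJ in 7 of 7 comparisons, by 1.61- to 2.02-fold (log2 -1.01 to -0.68, adjusted p at most 0.000283, edgeR), with no overlap of libraries. The level in STR/ort moved between these: it was called below MRL/MpJ at 0-day only (log2 -0.81, SE 0.182, adjusted p = 0.00189, edgeR), and above C57BL/6 in 3 of 7 comparisons, in both joints at 1-day (log2 0.65 and 0.93 in uninjured and injured joints) and in injured joints at 2-weeks (0.59). At 1-week the injured joints were just under the limit (0.58), and they were past it by DESeq2 and RLE scaling (both 0.60), under 1 RUVg factor (0.86) and without any 1 of 6 injured libraries (0.61 to 0.70). The 2-weeks call sat at the 1.5-fold limit and was lost without any 1 of 5 libraries (C57BL/6 injured replicates 2, 3 and 5 and STR/ort injured replicates 1 and 4), with values of 0.52 to 0.57. Under 1 RUVg factor the 1-day difference of uninjured joints was 0.40 (adjusted p = 0.0508, edgeR), and STR/ort was then called below MRL/MpJ in those joints (-0.66 in place of -0.16). The difference of uninjured joints at 1-week (0.51) was past the limit under 1 RUVg factor (0.82) and without C57BL/6 uninjured replicate 3 (0.59). Tlr1 and Tlr6 are similar genes, and 454 words of 50 bases were identical in both, 13.6% of the words of Tlr1 and 12.3% of those of Tlr6, so that reads in these stretches could not be assigned with certainty. The different orders of the strains, with STR/ort lowest for Tlr1 and C57BL/6 lowest for Tlr6, can be seen in the plot of levels by library.

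**Figure D2:**
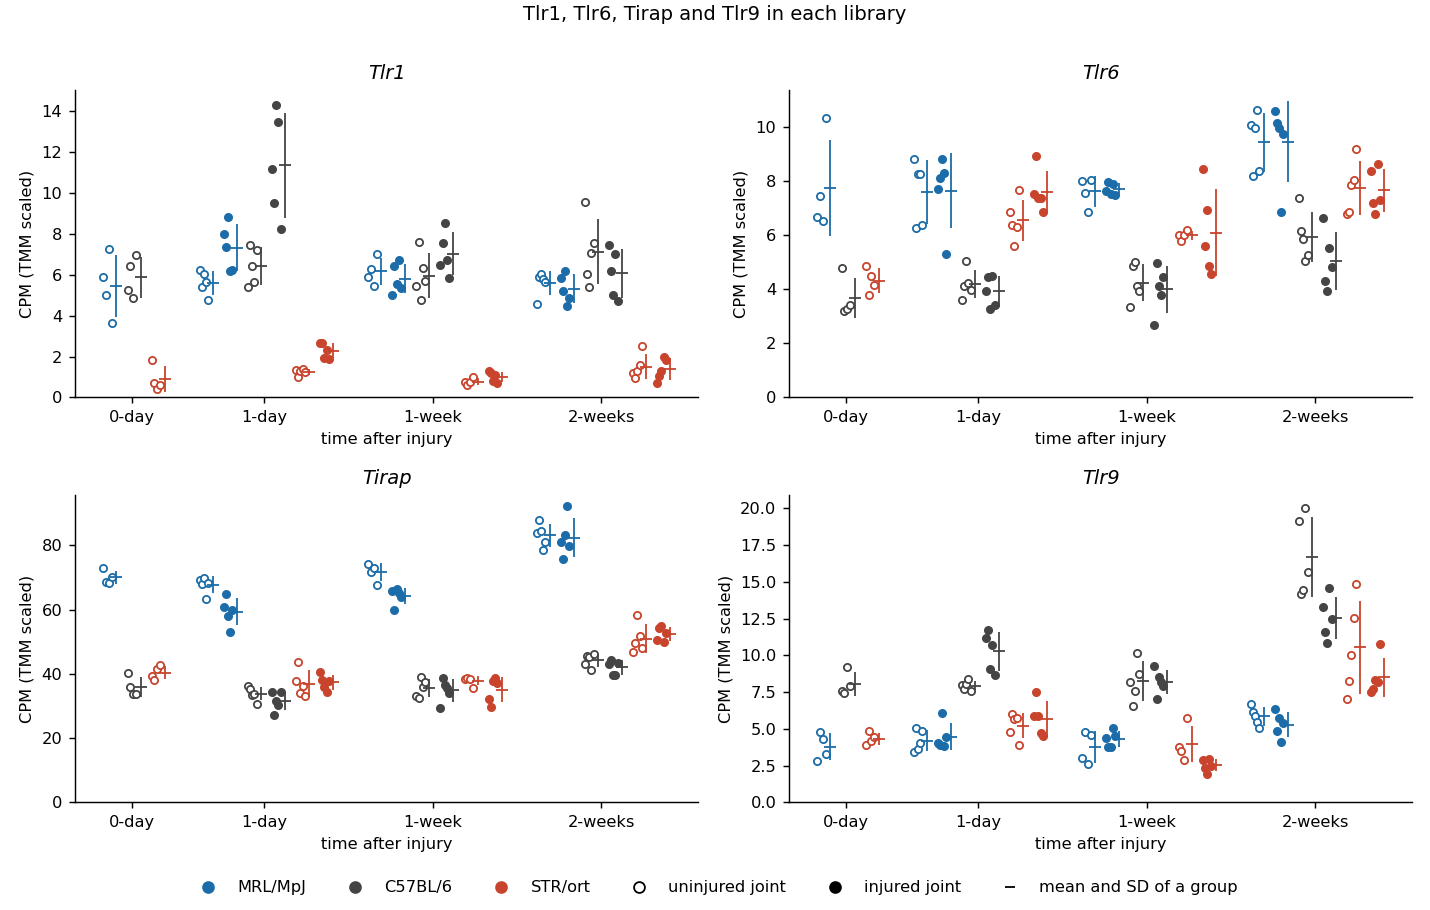
CPM (y axis, from 0) of Tlr1, Tlr6, Tirap and Tlr9 in every library by time (x axis) and strain (colour), with open circles for uninjured and filled circles for injured joints and with bars for the mean and SD of each group. STR/ort points are lowest for Tlr1 at every time, MRL/MpJ points are highest for Tirap at every time, and C57BL/6 points are highest for Tlr9 at 0-day, 1-day and 1-week.

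Tlr2, the receptor with which Tlr1 and Tlr6 pair, differed less between strains. At 0-day it measured 15.5, 17.8, 17.7 and 16.0 CPM in MRL/MpJ, 26.6, 18.2, 19.4 and 23.3 CPM in C57BL/6 and 18.3, 17.7, 19.4 and 19.4 CPM in STR/ort, and no pair of strains was called. It was called once in 21 strain comparisons, higher in STR/ort than in MRL/MpJ in injured joints at 1-day (33.2 ± 4.01 against 19.2 ± 2.90 CPM, SD, n = 5 each, log2 0.79, SE 0.0975, adjusted p = 1.02e-07, edgeR). The log2 fold change of STR/ort over MRL/MpJ was positive in 7 of 7 comparisons (0.17 to 0.79). C57BL/6 was also above MRL/MpJ in injured joints at 1-day, just under the fold limit (0.55), and passed it without C57BL/6 replicate 2 or 5 or MRL/MpJ replicate 2 (0.59 to 0.63).

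Tlr4, the receptor of lipopolysaccharide, was called in 0 of 21 strain comparisons by edgeR and by DESeq2, with 9 at a p under 0.05 before and after adjustment that missed the fold limit, and log2 fold changes of -0.18 to 0.58. Levels were 12.3 to 16.8 CPM in MRL/MpJ, 17.3 to 19.7 CPM in C57BL/6 and 15.4 to 18 CPM in STR/ort at 0-day. In uninjured joints at 1-week STR/ort stood at 20.8 to 32.8 CPM, and its difference from MRL/MpJ (log2 0.58, fold 1.49) and from C57BL/6 (0.54, fold 1.46) stayed just under the fold limit. Both passed it without STR/ort replicate 3 (0.70 and 0.66) and under 1 RUVg factor (0.69 and 0.64), the former also without MRL/MpJ replicate 3 or 4 (0.67 and 0.65) and the latter without C57BL/6 replicate 2 (0.62).

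Tlr5, the flagellin receptor, was lower in STR/ort at 0-day and 1-day. At 0-day STR/ort joints measured 2.52, 3.55, 2.61 and 3.19 CPM, C57BL/6 joints 6.16, 4.91, 3.65 and 5.30 CPM, and MRL/MpJ joints 5.79, 4.65, 3.79 and 3.45 CPM. STR/ort lay below C57BL/6 without overlap (log2 -0.80, SE 0.208, adjusted p = 0.00587, edgeR, and 0.0822 under 1 RUVg factor), and overlapped with MRL/MpJ (log2 -0.62, SE 0.222, adjusted p = 0.0376, edgeR). The latter call was lost by DESeq2 (-0.60, adjusted p = 0.054), under 1 RUVg factor (adjusted p = 0.0612, edgeR) and without any 1 of 5 libraries (MRL/MpJ replicates 1 and 2 and STR/ort replicates 1, 3 and 4), with -0.44 and adjusted p = 0.179 (edgeR) without MRL/MpJ 0-day replicate 1. At 1-day STR/ort was lower than C57BL/6 in uninjured (-0.65) and injured joints (-0.75) and lower than MRL/MpJ in injured joints (-0.62), but under 1 RUVg factor these became -0.39, -0.45 and -0.09 and were not called. The call in uninjured joints was also lost without C57BL/6 replicate 2 or 4 or STR/ort replicate 3 (-0.57 to -0.53), that against MRL/MpJ in injured joints without MRL/MpJ replicate 2 or STR/ort replicate 2 or 4 (-0.58 to -0.56), and uninjured STR/ort joints were called below MRL/MpJ without STR/ort replicate 4 (-0.67 in place of -0.51). At 1-week and 2-weeks Tlr5 was not called between any strains, and its log2 fold change for STR/ort against C57BL/6 ranged over all 7 comparisons from -0.80 to -0.04.

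Among the endosomal receptors, Tlr9 differed most between strains and was highest in C57BL/6. At 0-day C57BL/6 joints measured 7.60, 7.48, 9.22 and 7.95 CPM, STR/ort joints 3.88, 4.86, 4.18 and 4.42 CPM and MRL/MpJ joints 2.80, 4.77, 4.31 and 3.28 CPM. All C57BL/6 joints were above those of the other strains, which overlapped. C57BL/6 exceeded MRL/MpJ in 7 of 7 comparisons by 1.90- to 2.86-fold (log2 0.92 to 1.51, adjusted p at most 7.74e-05, edgeR), without overlap of libraries. STR/ort was lower than C57BL/6 in 6 of 7 comparisons (log2 -1.71 to -0.56 over the 7). Of these, the calls in uninjured joints at 1-day (-0.60) and 2-weeks (-0.65) were lost under 1 RUVg factor (-0.56 and -0.54) and without 1 of 3 libraries each, which were C57BL/6 replicate 4 and STR/ort replicates 1 and 5 at 1-day (-0.58 to -0.51) and C57BL/6 replicate 4 and STR/ort replicates 1 and 2 at 2-weeks (-0.57 to -0.54). The comparison that was not called, injured joints at 2-weeks, passed the limit without C57BL/6 replicate 2 or 3 or STR/ort replicate 5 (-0.66 to -0.59). STR/ort and MRL/MpJ had no fixed order, since STR/ort was higher at 2-weeks in uninjured (0.86) and injured joints (0.69) and lower in injured joints at 1-week (-0.79). The last value was -1.31 under 1 RUVg factor, and the call for injured joints at 2-weeks was lost under that factor (0.58) and without MRL/MpJ injured replicate 4 (0.58).

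Tlr9 is expressed in B cells, and the level of 4 B cell markers (Cd79a, Cd79b, Ms4a1 and Pax5, summed) moved with it in part. The sum had a median of 81.4 CPM (45.1 to 97.3) in MRL/MpJ, 166 CPM (101 to 237) in C57BL/6 and 139 CPM (39.2 to 223) in STR/ort, so the strains stood in the same order by their medians as for Tlr9 (4.49, 8.91 and 5.70 CPM). Over 100 libraries the correlation of Tlr9 with this sum was r = 0.75 after batch means were removed, and r = 0.46 within the 21 groups. With the T cell sum it was 0.41 within groups. In C57BL/6 at 1-day the directions differed. Tlr9 was 0.37 higher in injured joints by log2, not called, while the mean B cell sum was 114 CPM in injured and 155 CPM in uninjured joints. Tlr9 and the marker sums come from the same libraries, and the part of these cells in the strain difference was not tested. The plot of Tlr9 against the markers shows that the C57BL/6 libraries lay at the upper right and the MRL/MpJ libraries at the lower left, while STR/ort spanned the range.

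**Figure D3:**
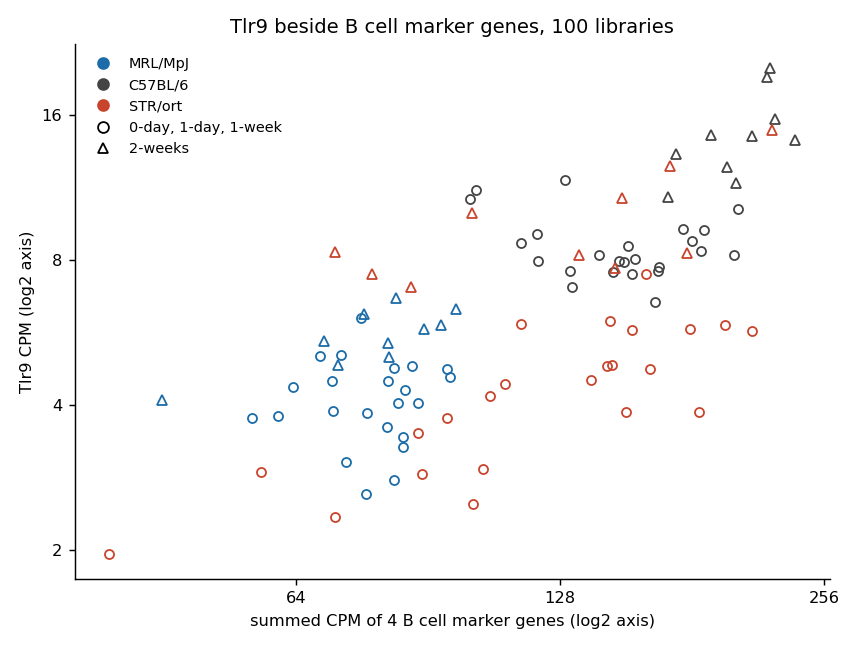
Tlr9 CPM (y axis, log2) against the summed CPM of 4 B cell markers (x axis, log2) in each of the 100 libraries, by strain (colour), with circles for batch 1 and triangles for the 2-weeks batch. MRL/MpJ libraries lie at or below 97.3 CPM of the markers and C57BL/6 libraries at or above 101 CPM, with STR/ort on both sides.

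Tlr3, which binds double-stranded RNA and signals without Myd88, was higher in C57BL/6 at 0-day. C57BL/6 joints measured 8.87, 8.12, 8.04 and 10.5 CPM, above all MRL/MpJ joints (5.09, 4.07, 6.20 and 4.83 CPM) and all STR/ort joints (5.73, 5.33, 6.47 and 5.52 CPM). The log2 fold change of C57BL/6 over MRL/MpJ was 0.87 (SE 0.153, adjusted p = 0.00021, edgeR), and STR/ort was lower than C57BL/6 by -0.66 (SE 0.144, adjusted p = 0.00169, edgeR), a value that fell under the fold limit (-0.57) without C57BL/6 0-day replicate 4. C57BL/6 was also higher than MRL/MpJ in both joints at 1-day (0.69 and 0.82), and STR/ort was higher than MRL/MpJ in uninjured joints at 1-day (0.75) and injured joints at 1-week (0.62). Under 1 RUVg factor the 1-day difference of uninjured STR/ort and MRL/MpJ joints was 0.49 (adjusted p = 0.197, edgeR) and that of C57BL/6 and MRL/MpJ 0.56, neither of which was called. The 1-week call was lost without MRL/MpJ injured replicate 5 (0.52) or STR/ort injured replicate 1 (0.57) and under 1 RUVg factor (0.66, adjusted p = 0.081, edgeR). Uninjured STR/ort joints at 1-week were above MRL/MpJ by 0.53 and above C57BL/6 by 0.48, and were called without STR/ort replicate 3 (0.66 and 0.62), the former also without MRL/MpJ replicate 3 (0.63) or STR/ort replicate 2 (0.59). Under 1 RUVg factor STR/ort was also called below C57BL/6 in injured joints at 1-day (-0.59 in place of -0.43). At 2-weeks no pair of strains was called. At 0-day fibroblast markers (6 genes, summed) were also highest in C57BL/6, at 12250 to 16990 CPM beside 6313 to 8019 CPM in MRL/MpJ and 8904 to 10490 CPM in STR/ort, and skeletal muscle markers (5 genes, summed) lowest, at 27530 to 44540 CPM beside 61020 to 73630 and 63070 to 69590 CPM, both without overlap. Over the 100 libraries Tlr3 correlated with the fibroblast sum with r = 0.77 and with the muscle sum with r = -0.56 (within groups 0.23 and -0.09), and their part in the strain difference was not tested. Gm45542, an antisense gene, overlaps the Tlr3 exons by 381 bases (7.32% of them) and has no row among the genes counted.

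Tlr7, the receptor of single-stranded RNA on the X chromosome, was higher in C57BL/6 than in the other strains before injury. C57BL/6 joints stood at 20.4, 21.6, 21.9 and 24.4 CPM, MRL/MpJ at 15.4, 13.7, 15.2 and 13.1 CPM and STR/ort at 15.1, 14.6, 12.6 and 14.9 CPM, with C57BL/6 above both others in every joint. The log2 fold change was 0.66 over MRL/MpJ (adjusted p = 4.33e-05, edgeR), and STR/ort was lower than C57BL/6 by -0.66 (adjusted p = 4e-05, edgeR), values that fell to 0.58 and -0.54 under 1 RUVg factor, below the fold limit. Only 1 later comparison was called, higher in STR/ort than in MRL/MpJ in uninjured joints at 1-week (0.72, SE 0.112, adjusted p = 5.09e-06, edgeR). C57BL/6 was above MRL/MpJ there by 0.58, just under the limit, and past it by DESeq2 (0.59), RLE scaling (0.59), 1 RUVg factor (0.60) and without C57BL/6 replicate 1, 3 or 4 or MRL/MpJ replicate 3 or 4 (0.60 to 0.63). Injured STR/ort joints at 1-day, with 1 RUVg factor, were called below C57BL/6 (-0.71 in place of -0.49). The fibroblast and muscle sums that set C57BL/6 apart at 0-day correlated with Tlr7 with r = 0.47 and -0.50 over the 100 libraries (within groups 0.12 and -0.30), and their part in this difference was not tested either.

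Of the adaptors, Tirap was highest in MRL/MpJ at all times. The 4 MRL/MpJ joints at 0-day measured 72.9, 68.7, 68.4 and 70.2 CPM, the C57BL/6 joints 40.2, 35.9, 33.6 and 33.6 CPM and the STR/ort joints 39.2, 38.2, 41.5 and 42.7 CPM. No MRL/MpJ joint overlapped with either other strain, and C57BL/6 and STR/ort were close to each other. Over all times, Tirap ranged from 53.2 to 92.4 CPM in MRL/MpJ, from 27.3 to 46.2 CPM in C57BL/6 and from 29.8 to 58.3 CPM in STR/ort. Tirap was lower in C57BL/6 than in MRL/MpJ in 7 of 7 comparisons by 1.84- to 2.0-fold (log2 -1.0 to -0.88, adjusted p at most 2.19e-08, edgeR), and lower in STR/ort than in MRL/MpJ in 7 of 7 by 1.57- to 1.86-fold (log2 -0.90 to -0.65, adjusted p at most 1.33e-07, edgeR). The STR/ort difference in injured joints at 1-day was -0.48 in place of -0.66 under 1 RUVg factor, below the fold limit. STR/ort and C57BL/6 were called in 0 of 7 comparisons by edgeR and by DESeq2, with 3 at a p under 0.05 before and after adjustment, under the fold limit (log2 0.00 to 0.32). B cell marker sums were lower in MRL/MpJ (45.1 to 97.3 CPM) than in C57BL/6 (101 to 237 CPM) without overlap. Over the 100 libraries Tirap correlated with them with r = -0.70 and with the sum of 8 neutrophil markers with r = 0.59 (within groups -0.29 and -0.07), and Tlr6, also highest in MRL/MpJ, with r = -0.56 and 0.45 (within groups -0.05 and 0.27). The part of these cells in the strain differences was not tested. Srpr, which overlaps the Tirap exons on the opposite strand by 39 bases, had log2 fold changes of -0.43 to 0.28 in the strain comparisons. Gm39318, an antisense gene, overlaps the Tirap exons on the opposite strand by 446 bases (9.05% of them) and has no row of its own among the genes counted, so that its share of the Tirap counts was not tested.

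Myd88, the adaptor shared by nearly all Toll-like receptors, was lower in MRL/MpJ. At 0-day MRL/MpJ joints measured 32.1, 33, 34.3 and 37.9 CPM, all below C57BL/6 (53.9, 48.3, 48.0 and 52.7 CPM) and STR/ort (47.7, 48.8, 45.6 and 47.7 CPM). The difference was past the fold limit for C57BL/6 (log2 0.61, SE 0.0741, adjusted p = 4.01e-06, edgeR), but not without MRL/MpJ 0-day replicate 1 (0.58) or replicate 2 (0.56) or under 1 RUVg factor (0.58). STR/ort was called above MRL/MpJ in 3 of 7 comparisons, in uninjured joints at 1-day (0.64) and 1-week (0.70) and in injured joints at 1-day (0.76), and the libraries did not overlap in 6 of 7 (log2 0.30 to 0.76). Under 1 RUVg factor the 1-week value was 0.19 (adjusted p = 0.39, edgeR) and the 1-day value of uninjured joints 0.58. Injured joints at 1-week were just under the limit (0.57) and past it by DESeq2 (0.59) and without MRL/MpJ replicate 2, 4 or 5 or STR/ort replicate 4 (0.59 to 0.61). The exons of Myd88 overlap the gene Acaa1a on the opposite strand by 290 bases (11.3% of the Myd88 exons), and Acaa1a was also higher than in MRL/MpJ, by log2 1.06 to 1.82 in STR/ort and 1.12 to 1.79 in C57BL/6, called in 7 of 7 comparisons each. The strand setting of the counting is not given in the sources used here, and the share of Acaa1a reads in the Myd88 counts was not tested. At 0-day muscle and fibroblast marker sums, which correlated with Myd88 with r = -0.75 and 0.63 over the 100 libraries (within groups -0.56 and 0.37), separated MRL/MpJ from C57BL/6 as given for Tlr3, while the muscle sums of MRL/MpJ and STR/ort overlapped. Their part in the Myd88 difference was not tested. C57BL/6 was called above MRL/MpJ for Myd88 at 0-day only, in 1 of 7 comparisons (log2 0.14 to 0.61), and the libraries did not overlap in 4 of 7. MRL/MpJ was thus lowest for Myd88 by fold change in 7 of 7 comparisons with each strain, mostly under the fold limit. It was highest for Tirap, with all of these comparisons called. STR/ort was above C57BL/6 by fold change in 6 of 7 comparisons for each gene, with 0 of 7 called for Myd88 (log2 -0.13 to 0.34) and for Tirap. Over the 100 libraries their levels correlated with r = -0.74, the lowest of all pairs among the 10 genes.

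The response to injury was examined by comparing injured with uninjured contralateral joints at each time. At 1-day Tlr1 was called in C57BL/6 (5.6% of all genes were called) and in STR/ort (4.31%), in both higher in injured joints, and 0 of the 10 genes were called in MRL/MpJ (2.02%). At 1-week Tlr3 was called in C57BL/6, higher in injured joints (5.82%), Tlr9 in STR/ort, lower in injured joints (9.21%), and 0 genes in MRL/MpJ (3.13%). At 2-weeks 0 genes were called in MRL/MpJ (1.16%), C57BL/6 (2.95%) or STR/ort (4.66%). In all, 4 of 90 injury comparisons were called, a share close to that of all genes. In the 5 comparisons with 0 calls by edgeR, DESeq2 also called 0 genes, and the numbers at an unadjusted p under 0.05 were 6 and 1 in MRL/MpJ at 1-day and 1-week and 0, 2 and 3 in MRL/MpJ, C57BL/6 and STR/ort at 2-weeks. After adjustment 1 gene each was left below 0.05, under the fold limit, in 4 of them: Myd88 and Tlr7 in MRL/MpJ at 1-day and 1-week, and Tlr3 in C57BL/6 and STR/ort at 2-weeks. The median log2 fold change of the 10 genes lay between -0.14 and 0.30 in these 9 comparisons, and that of all genes between -0.03 and 0.01.

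**Figure D4:**
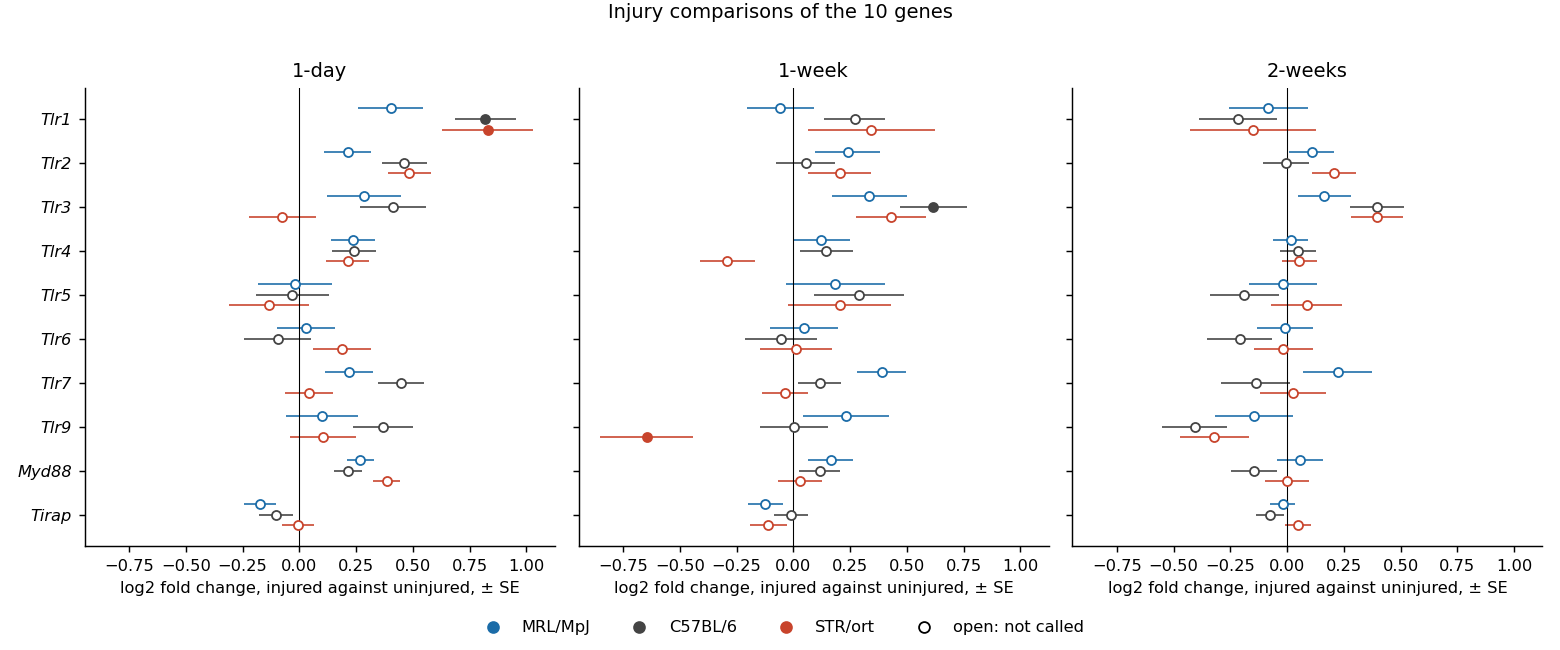
Log2 fold change ± SE (x axis) of injured against uninjured joints for the 10 genes (y axis) at each of the 3 times (panels), by strain (colour), with filled symbols for called changes. The filled symbols are Tlr1 in C57BL/6 (0.82) and STR/ort (0.83) at 1-day and Tlr3 in C57BL/6 (0.62) and Tlr9 in STR/ort (-0.65) at 1-week.

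Tlr1 was the receptor with the largest rise. In C57BL/6 at 1-day it measured 11.2, 9.53, 14.3, 13.5 and 8.24 CPM in injured joints and 5.39, 7.45, 6.41, 5.67 and 7.22 CPM in uninjured joints. Every injured joint was above every uninjured joint (log2 0.82, SE 0.134, adjusted p = 3.96e-05, edgeR). In STR/ort the injured joints measured 2.65, 2.64, 1.93, 2.34 and 1.89 CPM and the uninjured joints 1.36, 0.997, 1.31, 1.37 and 1.24 CPM, again without overlap (log2 0.83, SE 0.202, adjusted p = 0.00618, edgeR). The rise was thus of like size in these strains although it began from a level several-fold lower in STR/ort, and injured STR/ort joints still lay below the uninjured joints of the other strains. In MRL/MpJ the log2 fold change was 0.40 (SE 0.142, adjusted p = 0.118, edgeR), with 8.0, 7.34, 8.83, 6.18 and 6.22 CPM in injured and 6.23, 5.42, 6.05, 5.63 and 4.75 CPM in uninjured joints, which overlapped. The 3 strains were not shown to differ in this change, since the test of the interaction gave adjusted p = 0.417 (edgeR). At 1-week and 2-weeks Tlr1 was not called in any strain, with log2 fold changes of -0.22 to 0.34.

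Macrophage markers rose with Tlr1 in part at 1-day. Of 10 markers, 5 were called higher in injured joints of C57BL/6 (Adgre1, C1qa, C1qb, Ccr2 and Fcgr1) and 2 each in MRL/MpJ and STR/ort (Ccr2 and Fcgr1), whereas the summed level was 2692 to 3154 CPM in injured and 2286 to 3139 CPM in uninjured C57BL/6 joints and 2591 to 3074 beside 2536 to 3117 CPM in STR/ort. The median log2 fold change of the 10 markers was 0.63 in C57BL/6, 0.19 in MRL/MpJ and -0.04 in STR/ort, and no marker of the list was at 0 in any group. In the same C57BL/6 joints 3 of 6 fibroblast markers were called higher, with sums of 13180 to 20250 CPM in injured and 8325 to 13240 CPM in uninjured joints. The sum of 8 neutrophil markers was lower there without overlap, at 6188 to 7941 CPM in injured and 8741 to 11460 CPM in uninjured joints, with 8 of 8 at an adjusted p below 0.05 (edgeR) but 0 called by edgeR or DESeq2. The part of these cell types in the Tlr1 change was not tested.

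Tlr2 and Myd88 rose less than 1.5-fold at 1-day. Tlr2 measured 31.8, 22.9, 28.2, 31.0 and 25.5 CPM in injured C57BL/6 joints and 18.3, 19.3, 20.4, 23.1 and 19.5 CPM in uninjured ones, which overlapped slightly (log2 0.46, SE 0.0981, adjusted p = 0.000982, edgeR). In STR/ort the injured joints (29.4, 39.9, 31.0, 32.5 and 32.9 CPM) lay above all uninjured joints (23.0, 25.4, 23.1, 22.4 and 22.8 CPM), with a log2 fold change of 0.48 (SE 0.0958, adjusted p = 0.000886, edgeR). In MRL/MpJ the value was 0.21 (adjusted p = 0.302, edgeR). Myd88 had an adjusted p below 0.05 in each strain at 1-day, with log2 fold changes of 0.38 in STR/ort (adjusted p = 3.03e-05, edgeR), 0.27 in MRL/MpJ (adjusted p = 0.00699, edgeR) and 0.21 in C57BL/6 (adjusted p = 0.0106, edgeR). The STR/ort joints measured 67.1, 68.1, 66.8, 67.6 and 65.1 CPM when injured and 51.2, 48.8, 50.2, 46.9 and 56.1 CPM when uninjured, so that the groups were apart by more than their spread even though the fold, 1.31, was under the limit. By 1-week and 2-weeks the Myd88 log2 fold changes were between -0.15 and 0.16 and had adjusted p of 0.418 or more (edgeR). Muscle markers were 13970 to 35380 CPM in injured and 25500 to 44200 CPM in uninjured STR/ort joints at 1-day, with 2 of 5 called lower (Ckm and Myh4), 36730 to 66680 beside 52240 to 67860 CPM in MRL/MpJ with 0 called by edgeR or DESeq2 (1 at an unadjusted p under 0.05), and 27510 to 42390 beside 29750 to 69710 CPM in C57BL/6 with 1 called higher (Myh1). Over the 100 libraries this sum correlated with Tlr2 with r = -0.69 (within groups -0.38), and its part in these changes was not tested.

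**Figure D5:**
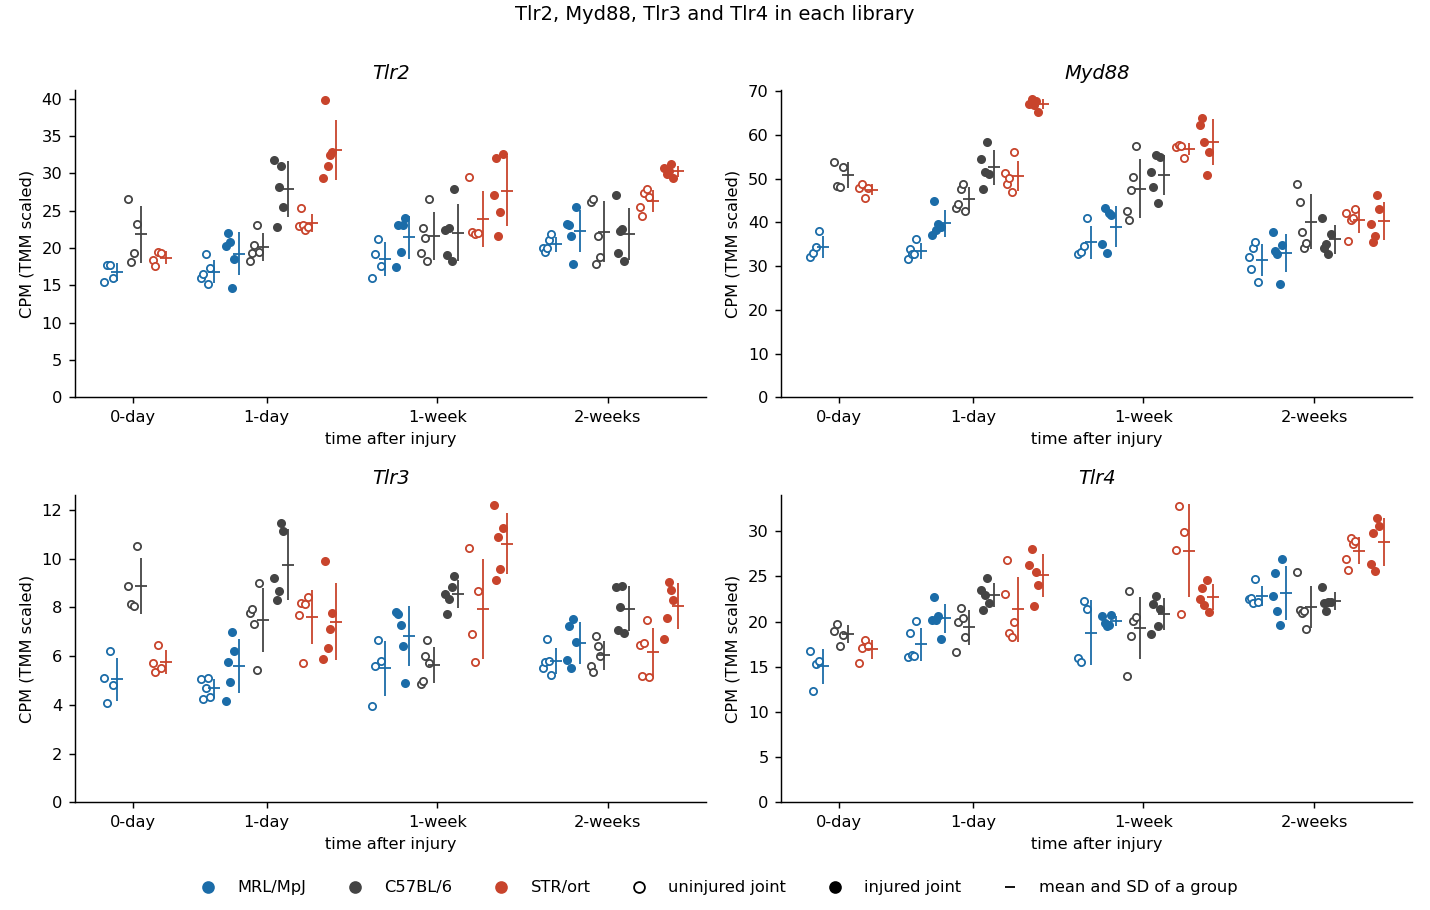
CPM (y axis, from 0) of Tlr2, Myd88, Tlr3 and Tlr4 in every library by time (x axis) and strain (colour), with open circles for uninjured and filled circles for injured joints and with bars for the mean and SD of each group. Injured STR/ort joints at 1-day are highest for Tlr2 and Myd88 by mean (33.2 and 66.9 CPM), and the mean of Tlr3 is higher in injured joints of each strain at 1-week.

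Tlr3 was called with injury only in C57BL/6 at 1-week, while smaller differences were measured at all 3 times. At 1-day injured C57BL/6 joints were 0.41 higher (adjusted p = 0.0463, edgeR), under the fold limit, and STR/ort joints -0.08 (adjusted p = 0.832, edgeR). At 1-week in C57BL/6 it measured 8.55, 7.75, 8.35, 8.84 and 9.29 CPM in injured and 4.85, 4.99, 5.99, 6.64 and 5.70 CPM in uninjured joints, without overlap (log2 0.62, SE 0.149, adjusted p = 0.00465, edgeR). The fold, 1.53, was at the limit, and without C57BL/6 1-week injured replicate 5 or uninjured replicate 1 or 2 it was below it (0.57 to 0.58, adjusted p 0.0159 to 0.02, edgeR). The uninjured C57BL/6 joints at 1-week were also lower than C57BL/6 joints at 0-day (see the contralateral comparison that follows), so that the injured joints stood at 8.55 ± 0.574 CPM (SD, n = 5) beside 8.88 ± 1.15 CPM (SD, n = 4) before injury. In STR/ort Tlr3 was 0.43 higher at 1-week (adjusted p = 0.0438, edgeR) and past the limit without STR/ort uninjured replicate 1 (0.59), and at 2-weeks it was 0.40 higher in both C57BL/6 (adjusted p = 0.0318, edgeR) and STR/ort (adjusted p = 0.0192, edgeR). In MRL/MpJ the values were 0.28, 0.33 and 0.16 at the 3 times, with adjusted p of 0.361 or more (edgeR). Fibroblast markers (6 genes, summed) rose in the same joints, from 5266 to 8416 CPM in uninjured to 13080 to 20510 CPM in injured C57BL/6 joints at 1-week, with 5 of 6 called. Their part in the Tlr3 change was not tested.

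Tlr9 fell in STR/ort at 1-week, from 3.77, 3.51, 2.88 and 5.74 CPM in uninjured to 2.90, 2.35, 1.96, 2.95 and 2.49 CPM in injured joints (log2 -0.65, SE 0.206, adjusted p = 0.0232, edgeR). The libraries overlapped. Without STR/ort 1-week uninjured replicate 4 the value was -0.41 (adjusted p = 0.172, edgeR), and without injured replicate 3 it was -0.56 (adjusted p = 0.0615, edgeR), so that the call rests on these libraries. B cell markers were 88.3 to 155 CPM in the uninjured and 39.2 to 105 CPM in the injured joints, with 0 of 4 called by edgeR (over the 3 times, 6 of 12 tests had an unadjusted and 2 an adjusted p under 0.05 and 0 were called by DESeq2), and markers of plasmacytoid dendritic cells, which also carry Tlr9, were called lower for 3 of 5 (Cox6a2, which muscle also expresses, Ly6d and Siglech), while their sum overlapped, at 315 to 381 CPM in uninjured and 334 to 373 CPM in injured joints. Of 8 neutrophil markers 4 were called lower and of 5 muscle markers 4. Fibroblast markers rose from 11130 to 20840 CPM in uninjured to 27870 to 48760 CPM in injured joints, with 3 of 6 called higher. Their part in the change was not tested. In C57BL/6 and MRL/MpJ the 1-week values were 0.00 and 0.23, and the strains were not shown to differ (interaction, adjusted p = 0.25, edgeR).

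Tlr7 was 0.45 higher in injured C57BL/6 joints at 1-day, at 25.8 to 31.0 CPM beside 19.0 to 23.9 CPM (adjusted p = 0.00214, edgeR), and 0.39 higher in injured MRL/MpJ joints at 1-week, at 17.1 to 18.8 beside 12.9 to 15.1 CPM (adjusted p = 0.0271, edgeR), both without overlap and both under the fold limit. Tlr4 had log2 fold changes of 0.21 to 0.24 in the 3 strains at 1-day (adjusted p of 0.0793 or more, edgeR), of 0.12 and 0.15 in MRL/MpJ and C57BL/6 at 1-week and of -0.29 in STR/ort at 1-week. Tlr5, Tlr6 and Tirap were called in 0 of 9 injury comparisons each by edgeR and by DESeq2, with 0, 0 and 1 at an unadjusted p under 0.05, and their log2 fold changes ranged from -0.19 to 0.29, from -0.21 to 0.19 and from -0.17 to 0.05.

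The strain by injury interaction asked whether the injury response differed between strains. Of the 10 genes 0 were called at 1-day (2.93% of all genes were), 0 at 1-week (0.901%) and 0 at 2-weeks (0.26%), by edgeR and by DESeq2. At an unadjusted p under 0.05 there were 1 gene at 1-day (Tlr7), 3 at 1-week (Tlr4, Tlr7 and Tlr9) and 0 at 2-weeks. The lowest adjusted p was 0.25 (edgeR). No difference in response between strains was thus detected for these genes, which does not show that the strains responded alike.

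The contralateral joint is the control of the injury comparison, and its own distance from joints of mice before injury was measured in batch 1. In MRL/MpJ 0 of 10 genes were called at 1-day (0.0867% of all genes) and 0 at 1-week, where 0% of all genes were called (0 by edgeR and by DESeq2, with 953 genes at an unadjusted p under 0.05). In C57BL/6 0 were called at 1-day (0.0635%) and 1 at 1-week (5.69%). In STR/ort 1 was called at 1-day (10% of all genes) and 2 at 1-week (13.8%). The comparisons with 0 calls by edgeR had 0 by DESeq2 as well and 1 gene each at an unadjusted p under 0.05 (Tlr7 and Tlr4 in MRL/MpJ at 1-day and 1-week, Myd88 in C57BL/6 at 1-day). The later joints of a strain at different times share the 0-day libraries.

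In STR/ort at 1-week Tlr4 rose from 15.4, 17.1, 18 and 17.3 CPM to 27.9, 32.8, 20.8 and 30.0 CPM (log2 0.74, SE 0.139, adjusted p = 5.72e-05, edgeR) and Tlr7 from 12.6 to 15.1 CPM to 18.7 to 27.2 CPM (log2 0.71, SE 0.121, adjusted p = 1.61e-05, edgeR). All joints at 1-week were above all joints at 0-day for both genes. Under 1 RUVg factor Tlr7 was 0.50 (adjusted p = 0.0558, edgeR) and no longer called. Tlr2, Tlr3, Tlr6 and Myd88 also had adjusted p below 0.05, with log2 fold changes of 0.38, 0.47, 0.50 and 0.29. At 1-day Tlr6 was called (log2 0.63, SE 0.143, adjusted p = 0.000927, edgeR), with 4.85, 3.79, 4.49 and 4.17 CPM at 0-day and 6.86, 6.38, 5.61, 6.30 and 7.66 CPM at 1-day, but it fell to 0.57 without STR/ort 0-day replicate 2 or 1-day uninjured replicate 5 and to 0.52 (adjusted p = 0.333, edgeR) under 1 RUVg factor. Without STR/ort 0-day replicate 1, the joint with the highest Tlr1, Tlr1 was called at 1-day too (1.15 in place of 0.47, adjusted p = 0.0103, edgeR), and without STR/ort 1-week uninjured replicate 3, Tlr3 (0.61 in place of 0.47) and Tlr5 (0.85 in place of 0.57) were called at 1-week. Macrophage markers moved in the same direction as these receptors in STR/ort, from a sum of 1783 to 2513 CPM at 0-day to 2536 to 3117 CPM at 1-day and 2861 to 3523 CPM at 1-week. Fibroblast markers were also higher, at 8904 to 10490 CPM at 0-day, 11250 to 15200 CPM at 1-day and 11130 to 20840 CPM at 1-week, and skeletal muscle markers (5 genes, summed) were lower without overlap, at 63070 to 69590, 25500 to 44200 and 22820 to 45350 CPM. Over the 100 libraries Tlr4 and Tlr7 correlated with the muscle sum with r = -0.57 and -0.50 (within groups -0.20 and -0.30), and each with the macrophage sum with r = 0.46. The part of these cell types was not tested.

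In C57BL/6 Tlr3 fell at 1-week from 8.87, 8.12, 8.04 and 10.5 CPM to 4.85, 4.99, 5.99, 6.64 and 5.70 CPM (log2 -0.67, SE 0.154, adjusted p = 0.00241, edgeR), without overlap. Without C57BL/6 0-day replicate 4 it was -0.58 and below the fold limit. Fibroblast markers were lower in the same joints, at 5266 to 8416 CPM beside 12250 to 16990 CPM at 0-day, and their part was not tested.

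Other genes of the pathway were followed by lists, beside a share of 4.32% called in either direction over all genes in the 9 injury comparisons. Of 171 injury tests of 19 genes that relay the signal, 0 were called by edgeR and by DESeq2 and 27 had an unadjusted and 6 an adjusted p under 0.05 (median log2 fold change of the list -0.10 to 0.04). Between strains, genes of this list were called in 10.5% of tests at 0-day, 11.7% in injured and 11.1% in contralateral joints, beside 14.8%, 17.1% and 15.2% of all genes. Ticam2, the adaptor TRAM that carries the Tlr4 signal to Ticam1, measured 0.913 to 3.80 CPM in MRL/MpJ, 8.18 to 14.6 CPM in C57BL/6 and 7.62 to 17.7 CPM in STR/ort, and was higher than in MRL/MpJ in 7 of 7 comparisons for C57BL/6 (log2 2.28 to 3.0) and in 7 of 7 for STR/ort (2.05 to 3.02). Tab3, a subunit of the complex that activates Map3k7, was lower in STR/ort than in MRL/MpJ in 7 of 7 (-1.05 to -0.71). So MRL/MpJ had the highest level of 1 adaptor, Tirap, and the lowest of another, Ticam2. The part of aligning all strains to the C57BL/6 genome in the Ticam2 difference was not tested.

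Of 9 co-receptors and chaperones, 0 to 2 were called per injury comparison (12 of 81 tests, 14.8%), and these were Cd14, Lbp and Hsp90b1, all higher in injured joints. Cd14, which hands lipopolysaccharide to Tlr4, was called in 6 of 9 injury comparisons and rose most in STR/ort at 1-day, from 8.33 ± 0.564 to 19.4 ± 1.95 CPM (SD, n = 5 each, log2 1.20, SE 0.117, adjusted p = 1.3e-08, edgeR), while Tlr4 itself was not called. Cd14 was also higher in STR/ort than in C57BL/6 (0.87 to 1.70) and MRL/MpJ (1.16 to 2.25) in 7 of 7 comparisons each, as was Lbp, the lipopolysaccharide binding protein (0.59 to 2.17 and 0.94 to 2.21). Cd180, a relative of Tlr4 on B cells, was higher in C57BL/6 than in MRL/MpJ in 7 of 7 (0.93 to 1.23), as Tlr9 was.

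Of 8 tissue ligands, 1 to 4 were called per injury comparison (24 of 72 tests in either direction, 33.3%), led by the proteoglycans versican (Vcan, 9 of 9, log2 0.62 to 1.68) and biglycan (Bgn, 7 of 9, -0.12 to 1.38), and S100a8 was called lower in STR/ort at 1-week (-0.60). The median log2 fold change of this list was -0.03 to 0.32. Of 10 inhibitors, 0 to 2 were called (6 of 90 tests, 6.67%, near the share over all genes), namely Socs1 and Il1rl1, both higher in injured joints, the latter up to log2 1.52 in STR/ort at 1-week. Of 4 other receptors (Tlr8, Tlr11, Tlr12 and Tlr13), 1 was called in 1 injury comparison, Tlr11 in STR/ort at 1-week, at levels of 0.281 ± 0.224 and 0.915 ± 0.521 CPM (SD, n = 5 and 4) that overlapped and were near the detection limit.

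The genes whose levels followed each member most closely were found among 14386 genes by Pearson correlation over the 100 libraries after batch means were removed, as a description. All libraries share strain and injury as sources of variation. Tlr1 was followed by Cyth4 (r = 0.95), Cd5l (0.92) and Gcnt1 (0.92), Tirap by AA465934 (0.93), H2-Ea-ps (0.93) and Whamm (0.92), and Myd88 by Ywhaz (0.90), Snx1 (0.86) and Ppt1 (0.85). Tlr9 was followed by Gm1966 (0.88), Cd180 (0.86) and Cd72 (0.85), the last a B cell surface protein. Tlr6 was followed by A530032D15Rik (0.84), Tlr3 by Lpar4 (0.82), Tlr2 by Dram1 (0.79), Tlr7 by the protease gene Ctss (0.75), Tlr4 by Adam17 (0.74) and Tlr5 by Xylt1 (0.61). Among pairs of the 10 genes the highest correlation was that of Tlr2 and Myd88 (0.77), while the neighbours Tlr1 and Tlr6 had r = -0.13.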

How the data were processed

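Poly(A)+ libraries were made from total RNA of whole knee joints, and per the labels the authors aligned reads with TopHat2 2.0.11 to mm10, the genome of C57BL/6J, for all strains and counted them per RefSeq gene with featureCounts. The deposited table holds raw counts per gene, whereas settings for strand and for reads with several matches are not given in the sources used here. Of 17313 entries, 3 repeated ones were dropped, and requiring 2 or more counts in 5 or more libraries removed 0 of the remaining 17310 genes.

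Strains, injured against uninjured joints and their interaction (F test with 2 degrees of freedom) were tested within each time, and uninjured joints against 0-day joints within batch 1, with the quasi-likelihood test of edgeR 4.0.16 in R 4.3.3 (TMM scaling, Benjamini-Hochberg adjustment over all genes), which was checked on simulated counts. A gene was called at an adjusted p below 0.05 and a fold above 1.5 (interaction, adjusted p only). Levels are CPM with TMM scaling over all 100 libraries, and correlations used log2 CPM with a prior count of 2. Libraries held 6182016 to 20986027 counts, a difference in depth that TMM scaling adjusts for, and low counts give larger SEs. Alternatives were DESeq2 1.42.0, RLE scaling, 1 RUVg factor from 25 housekeeping genes, filterByExpr, no filter, a replicate block and leaving out each library.

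Replicate numbers name the same animal in the 2-weeks labels, and correlations of deviations from the group means of same-numbered joints were -0.16 to 0.26 there (median 0.14, 15 pairs). In STR/ort at 1-week all 4 pairs were above 0.1 (0.10 to 0.23). For 1-day and 1-week joints the labels give a replicate number but no animal. Such correlations cannot show which joints share an animal, since those of known pairs at 2-weeks reached down to -0.16. The replicate block of the alternatives joined joints by strain and replicate number. The tests reported had no block. All 10 members are named, and of other lists, per kind of comparison, the called genes (1 higher, 1 lower) whose adjusted p was lowest, plus the 3 other genes of at least 1 CPM that correlated best with each member. Further genes named beside a count were chosen after their values were seen. The members and lists were chosen with earlier results of these data known. Promoters and positions are from RefSeq (GRCm38.p6). Of the B cell markers 1 is not reported here and was left out of the sum.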

Additional observations from a re-analysis of the deposited data

Results flagged for a closer look

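For the 10 genes in each of 21 groups of 4 to 5 libraries, 1 library lay apart from the others in CPM by Dixon's test at the 95% level in 15 of 210 sets of values. Chance alone gives about 1 in 20, and sets of the same group share their libraries. Among the surface receptors, Tlr1 was 4.56 in MRL/MpJ 2-weeks uninjured replicate 1 (others 5.65 to 6.06). Tlr2 was 25.4 in STR/ort 1-day uninjured replicate 2 (others 22.4 to 23.1) and 29.5 in STR/ort 1-week uninjured replicate 1 (others 21.9 to 22.1). Tlr4 was 24.7 in MRL/MpJ 2-weeks uninjured replicate 4 (others 22.0 to 22.6). Tlr5 was 4.08 in C57BL/6 1-day injured replicate 5 (others 5.24 to 5.59), 6.15 in MRL/MpJ 1-week uninjured replicate 3 (others 4.59 to 4.75) and 4.89 in STR/ort 2-weeks uninjured replicate 2 (others 5.88 to 6.13). Tlr6 was 4.80 in C57BL/6 0-day replicate 1 (others 3.22 to 3.44) and 6.85 in MRL/MpJ 2-weeks injured replicate 4 (others 9.76 to 10.6), the library with the lowest correlation with its group.

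Among the endosomal receptors, Tlr3 was 5.70 in STR/ort 1-day uninjured replicate 3 (others 7.69 to 8.41). Tlr7 was 24.3 in STR/ort 1-day uninjured replicate 1 (others 17.6 to 18.8). Tlr9 was 6.07 in MRL/MpJ 1-day injured replicate 3 (others 3.85 to 4.48) and 10.8 in STR/ort 2-weeks injured replicate 5 (others 7.50 to 8.33). Of the adaptors, Myd88 was 54.6 (others 57.3 to 57.7) and Tirap 35.7 (others 38.3 to 38.7) in the same library, STR/ort 1-week uninjured replicate 4, which also held the highest Tlr9 of its group and without which the Tlr9 change with injury at 1-week was -0.41 in place of -0.65.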

How the results depend on the processing

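Of 83 calls among 390 tests of the 10 members, 57 were kept under every alternative run, and no call changed direction in any of them. The filters changed no call, DESeq2 ended 1 and added 3, RLE scaling added 2, and the replicate block changed none of 120 injury and interaction tests (2, 2 and 0 called with injury at the 3 times with and without the block). With 1 RUVg factor 21 calls were lost and 8 gained: strain calls in contralateral joints at 1-day went from 12 to 7 of 30, and the call between contralateral 1-day and 0-day joints from 1 to 0. Leaving out 1 library at a time cost a call in 38 and added one in 36 of 4280 tests. The count of injury calls at 1-week then ranged from 1 to 3 (2 with all libraries), that of contralateral against 0-day joints from 0 to 2 at 1-day (1) and from 2 to 5 at 1-week (3). Log2 fold changes of the lost calls were 0.59 to 0.80 in size, beside a fold limit of 1.5, and the cause was not tested. Of Tlr5, 0 of 5 calls were kept throughout, of Tlr1 16 of 17 and of Tirap 13 of 14. Depth limits Tlr1 most, with 4 to 32 counts per library in STR/ort.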
